A study of Mus musculus with 10 samples.

Results

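The genes described here are 32 genes of 2 protein folding responses, read by symbol from a table of 21956 genes. Of the 32, 19 belong to the unfolded protein response of the endoplasmic reticulum and 13 to the heat shock response of the cytosol and mitochondria. The hippocampus of 10 mice was profiled by RNA sequencing, all labelled hMapt, a genotype with the human gene for tau, a microtubule protein of neurons. The 5 mice of the circTau6 group had been injected with AAV-circTau6, an adeno-associated virus (a gene delivery vector) that carries circTau6. The 5 mice of the control group are described as control-injected, with no word on what they received. Each library is read here as 1 mouse, which the labels do not state outright. Both groups share the hMapt genotype, an age of 6 months and the hippocampus, and the series gives 80 days from injection of AAV-circTau6. The promoter of the human gene, the serotype of the virus and the cells it reached are not stated.

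Proteins that enter the secretory pathway fold in the endoplasmic reticulum with the help of chaperones. When unfolded protein builds up there, the membrane sensors Ern1, Eif2ak3 and Atf6 raise chaperones, degradation factors and, through translational control of Atf4, stress transcription factors. In the cytosol, heat shock factors play the corresponding part and raise the HSP70, HSP90 and small heat shock proteins. Neurons keep several of these chaperones at high levels without stress, and both responses are studied in diseases in which tau aggregates.

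Total counts ranged from 14762952 to 17647138 per library, and 31 of the 32 genes passed the filter on low counts among 14396 tested genes. Mouse Mapt was present in 10 of 10 libraries at 24.4 to 31.5 CPM, counts scaled to the library total adjusted by edgeR's TMM factor. CircTau6 itself was not analysed here. Of the hippocampal neuron markers, 11 of 11 passed the filter. Their summed level was 1283 to 1518 CPM in control and 1198 to 1449 CPM in circTau6 libraries. No other brain region was sequenced, so these levels do not test the tissue label. Libraries of both groups stood apart in ways the labels do not give. Control replicate 2 and circTau6 replicate 5 were poor in choroid plexus transcripts, with a summed marker level of 267 and 247 CPM where the others had 2274 to 6189 CPM. CircTau6 replicate 3 was the highest library for 18.3% of all tested genes, where each other library was so for 7.40% to 10.9%, and for 9 of 10 endothelial and 8 of 10 meningeal fibroblast markers, but for 2 of the 31 genes here. Control replicates 4 and 5 had high levels of many chaperone genes, as described below, so the fold changes of these genes are also given without both, a choice made after their values were seen.

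Neither response differed between the groups beyond the spread between mice. With edgeR's quasi-likelihood test and an adjusted p threshold of 0.05, 0 of the 18 tested unfolded protein response genes and 0 of the 13 heat shock genes were called, where the share called over all tested genes was also 0%. The lowest adjusted p among them was 0.981. At an unadjusted p under 0.05 the test gave 0 unfolded protein response genes and 1 heat shock gene, Hsp90aa1, beside 4.42% of all tested genes (2.58% higher and 1.85% lower). DESeq2 also called 0 of these genes, beside 0.0602% of all genes it tested, and gave 3 at an unadjusted p under 0.05, namely Sel1l, Hsp90aa1 and Hsph1. In 0 genes of either response did all circTau6 libraries lie above, or all below, every control library, beside 0.472% and 0.368% of all tested genes.

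Most point estimates lay slightly below 0. The log2 fold change of circTau6 against control was negative for 14 of 18 unfolded protein response genes, with a median of -0.07, and for 12 of 13 heat shock genes, with a median of -0.06. Over all tested genes the median was 0.00, and 49.9% were positive. Both counts changed with the libraries used. Without control replicates 4 and 5 together, 6 of 18 and 2 of 13 estimates were negative, with medians of 0.04 and 0.04, and again 0 genes were called. Without control replicate 5, 11 of 18 and 6 of 13 were negative, with medians of -0.01 and 0.01, and without control replicate 4 they were 11 of 18 and 10 of 13. Without circTau6 replicate 2 they were 12 of 18 and 10 of 13, and without circTau6 replicate 3 they were 14 of 18 and 13 of 13. Scaled by library totals only, 14 of 18 and 10 of 13 were negative. In the authors' deposited table the lowest FDR among the 32 genes was 0.987. Of all genes in that table, 3.06% had a p under 0.05 (2.9% higher in circTau6).

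**Figure D1:**
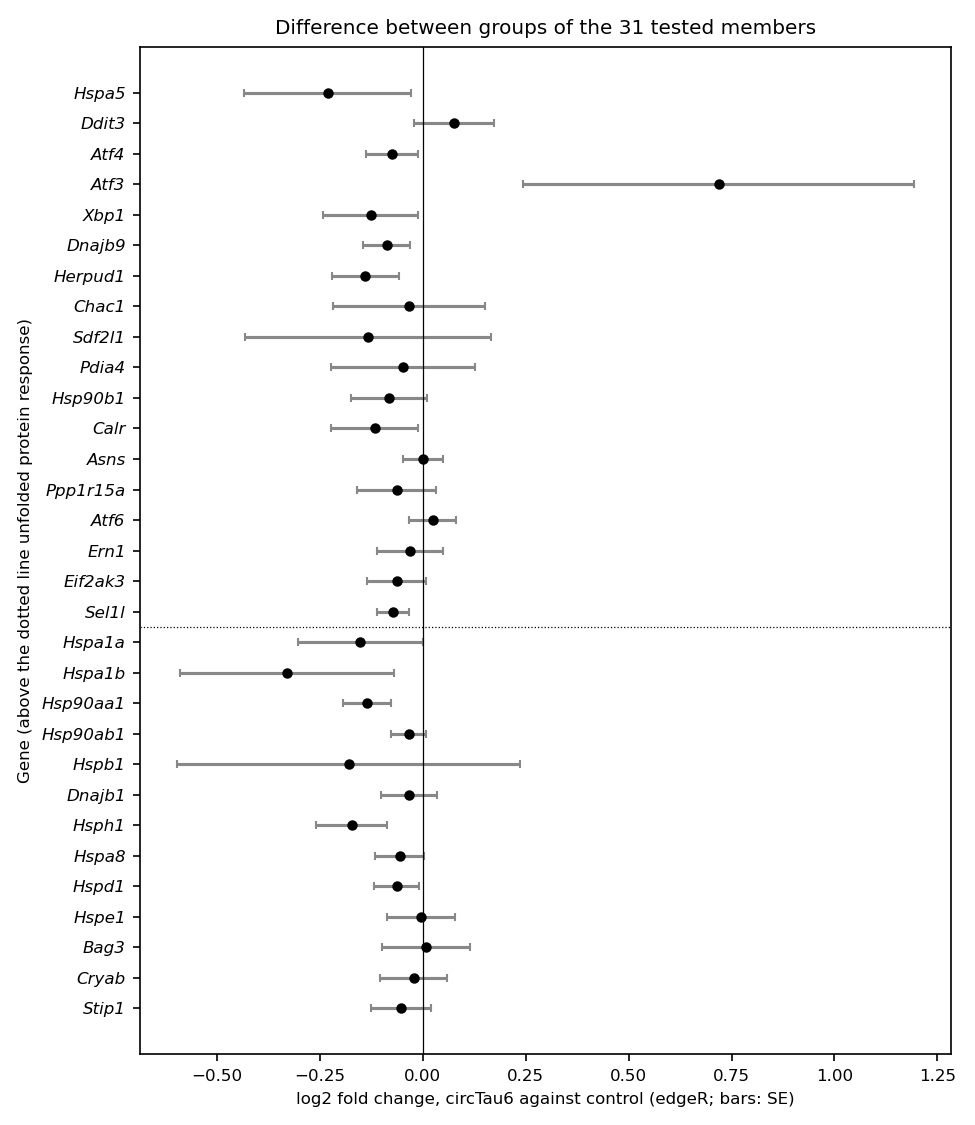
Log2 fold change of circTau6 against control from edgeR (x axis) for each of the 31 tested genes (y axis), with points for the estimate and bars for its SE, unfolded protein response above the dotted line and heat shock below it. Most points lie just left of 0, and Atf3 at 0.72 has the widest bar.

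Before the single genes, their levels place them in this tissue. On the TPM scale, which corrects counts for transcript length, the constitutive cytosolic chaperones led. Hspa8 had 1674 ± 157 TPM (SD, n = 5) in control and was the 27th highest gene of the table. Hsp90ab1 with 1416 ± 65.5 TPM and Hsp90aa1 with 1010 ± 85.2 TPM (SD, n = 5) stood at ranks 36 and 58. In the endoplasmic reticulum group Hsp90b1, Calr and Hspa5 were highest, with 323 ± 47.3, 319 ± 52.0 and 251 ± 78.8 TPM (SD, n = 5), levels that overlapped within their spread. Of the stress-induced factors, Atf3 and Trib3 were low, with 1.02 ± 0.340 and 0.553 ± 0.286 TPM (SD, n = 5). Ddit3 had 28.0 ± 2.64 TPM, above the sensor Ern1 with 6.71 ± 0.587 TPM (SD, n = 5).

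Between their lowest and highest library the sensors Ern1, Eif2ak3 and Atf6 differed 1.23-fold, 1.26-fold and 1.23-fold. Ern1, which encodes IRE1, a kinase and ribonuclease that splices Xbp1 messenger RNA, ranged from 15.04 to 18.43 CPM over the 10 libraries. Eif2ak3, which encodes PERK, the kinase that slows translation, ranged from 26.9 to 33.8 CPM. Atf6, a membrane-bound transcription factor released by proteolysis, ranged from 93.9 to 115 CPM. Their log2 fold changes were -0.03, -0.06 and 0.02, each smaller than its SE of 0.08, 0.07 and 0.06. Of 13 tested genes from a wider list of sensors and regulators, 0 were called, with 8 positive and 5 negative estimates. The lowest p in that list was that of Mbtps1, the protease that cleaves Atf6, at a log2 fold change of 0.09 ± 0.04 (SE), for an edgeR adjusted p of 0.981.

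Xbp1, the transcription factor downstream of IRE1, lies on chromosome 11 from 5520659 to 5525893 (GRCm38). It was at 60.3, 60.5, 59.8, 83.6 and 87.0 CPM in control replicates 1 to 5 and at 60.8, 60.0, 68.0, 63.2 and 69.4 CPM in circTau6 replicates 1 to 5. Control replicates 4 and 5 lay above all others, and the other 3 controls overlapped the lowest circTau6 libraries. The log2 fold change was -0.13 ± 0.11 (SE), with an edgeR adjusted p of 0.981, -0.04 without control replicate 5, -0.05 without control replicate 4 and 0.09 without both. Gene counts do not separate the spliced from the unspliced form.

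Atf4, translated when PERK or another eIF2α kinase is active, was at 84.4, 96.3, 79.5, 96.0 and 86.4 CPM in control and at 79.2, 79.3, 86.8, 81.7 and 93.4 CPM in circTau6 libraries. The groups overlapped, and control replicate 5 was not high. Ddit3, which encodes the pro-apoptotic factor CHOP, was at 10.9, 9.02, 8.78, 10.2 and 10.4 CPM in control and at 9.29, 10.4, 11.0, 10.6 and 10.8 CPM in circTau6 libraries. It was 1 of the genes with the least spread when compared with genes of like level, and control replicates 4 and 5 lay inside the range of the others. Atf3, an inducible factor of the same family, was at 0.518, 0.950, 0.574, 0.803 and 1.20 CPM in control and at 0.227, 1.35, 2.07, 0.765 and 2.31 CPM in circTau6 libraries. The lowest and the 3 highest values were all in the circTau6 group. Its log2 fold change of 0.72 ± 0.47 (SE), the largest positive estimate of the 31, rested on 4 to 36 counts per library and had an edgeR adjusted p of 0.981.

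Among the targets of this branch, Asns (asparagine synthetase) stayed between 78.2 and 90.5 CPM, with a log2 fold change of 0.00 ± 0.05 (SE). Chac1, which degrades glutathione, ranged from 2.88 to 4.82 CPM, and Ppp1r15a, which encodes the phosphatase subunit GADD34, from 12.2 to 16.9 CPM. Trib3, a pseudokinase induced by Atf4 and CHOP, did not pass the filter. It had 1 to 11 counts per library, 0.0670 to 0.653 CPM, where 3 counts correspond to 0.170 to 0.204 CPM, so a difference was not detectable at this depth. Over 36 tested genes of a wider Atf4 and integrated stress response list, 0 were called, with 19 positive and 17 negative estimates. Shmt2 and Ddit4 had the lowest p there, with log2 fold changes of 0.22 ± 0.09 and 0.18 ± 0.08 (SE) and edgeR adjusted p of 0.981. The ATF4 motif, searched as TGATGNAA on both strands of the 250 bases before the RefSeq start, was held by 4 of the 27 genes that have an entry in the RefSeq promoter table (GRCm38.p6, strand of the gene) and by 3.91% of all 27025 genes there. The stretches around each match are shown because they are the only matches among these genes, with the motif in capitals, read on the opposite strand in the first 3:
Atf3 chr1:191183425-191183454: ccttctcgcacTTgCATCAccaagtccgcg
Herpud1 chr8:94386306-94386335: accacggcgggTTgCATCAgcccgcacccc
Chac1 chr2:119351038-119351067: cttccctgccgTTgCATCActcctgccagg
Asns chr6:7693214-7693243: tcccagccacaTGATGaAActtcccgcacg
The stretch of Asns lies before the RefSeq start but inside the gene as GENCODE annotates it, where it overlaps an exon of 1 Asns transcript. The first 3 share the same 8 letters on the opposite strand, TTGCATCA. Their spread between mice differed in size: Asns had a within-group SD at the 16.4th percentile of genes of like level, and Atf3 at the 88.8th.

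Of the 31 genes, an endoplasmic reticulum chaperone, Hspa5, had the widest spread between mice for its level. Hspa5, which encodes BiP, the HSP70 of this compartment and the classic readout of the response, lies on chromosome 2 from 34771970 to 34777547 (GRCm38). It was at 218, 207, 213, 343 and 393 CPM in control and at 227, 201, 253, 241 and 248 CPM in circTau6 libraries. Control replicates 4 and 5 were the highest of all 10, and the other 3 controls lay among the lowest. The group means were 275 ± 86.7 and 234 ± 20.9 CPM (SD, n = 5), the log2 fold change was -0.23 ± 0.20 (SE) and the edgeR adjusted p was 0.981. Without control replicate 5 the log2 fold change was -0.07, without control replicate 4 it was -0.14 and without both it was 0.13, with an edgeR adjusted p of 0.999.

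Hsp90b1 (GRP94, the HSP90 of this compartment) was at 330, 339, 328, 407 and 446 CPM in control and at 344, 302, 372, 362 and 369 CPM in circTau6 libraries. Calr (calreticulin, a calcium-binding lectin chaperone) was at 251, 259, 241, 319 and 344 CPM in control and at 248, 237, 294, 248 and 277 CPM in circTau6 libraries. Both had the order seen for Hspa5 at the top, control replicate 5 and then control replicate 4. They are given in full because of their promoters, a choice made after their values were seen. The log2 fold change of Hsp90b1 was -0.08 ± 0.09 (SE), and 0.07 without both libraries. That of Calr was -0.12 ± 0.11 (SE), and 0.06 without both. Sdf2l1, which works with BiP, was at 3.49, 3.15, 3.62, 5.09 and 9.68 CPM in control and at 3.63, 3.75, 5.80, 3.94 and 5.65 CPM in circTau6 libraries. Here control replicate 5 stood alone, and control replicate 4 lay below 2 circTau6 libraries. Pdia4, a disulfide isomerase, ranged from 36.3 to 63.8 CPM, with the top values again in control replicates 5 and 4.

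Hspa5, Hsp90b1 and Calr were also the only ones of the 27 promoters with the endoplasmic reticulum stress element, searched as CCAAT, a gap of 9 bases of any kind and CCACG, on both strands of the same 250 bases. It was held by 0.130% of 27025 genes. It is the element that NF-Y and cleaved ATF6 are known to bind. The stretches below show it with its ends in capitals, CCAAT and CCACG, or CGTGG and ATTGG where it reads on the opposite strand, and Hsp90b1 held it once on each strand:
Hspa5 chr2:34772020-34772048: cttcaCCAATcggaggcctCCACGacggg
Hsp90b1 chr10:86705525-86705674: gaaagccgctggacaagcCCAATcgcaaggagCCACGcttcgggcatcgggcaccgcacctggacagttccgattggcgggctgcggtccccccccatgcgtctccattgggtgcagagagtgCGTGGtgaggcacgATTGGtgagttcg
Calr chr8:84847017-84847106: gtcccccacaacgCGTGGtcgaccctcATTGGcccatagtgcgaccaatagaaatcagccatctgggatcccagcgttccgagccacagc
The stretch of Hspa5 lies before the RefSeq start but inside the gene as GENCODE annotates it, where it overlaps an exon of 1 Hspa5 transcript. The related element TGACGTGG was held by 0 of the 27 and by 0.603% of all genes. A match describes the letters of the window and not binding in these mice. Only exact matches were counted, so a promoter without one may still hold a variant of the element or hold it elsewhere. Atf6, Hspa8, Hsp90aa1, Hsp90ab1 and Cryab had no entry.

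The degradation factors and a co-chaperone of BiP had the lowest p of the unfolded protein response genes. Sel1l, the adaptor of the ubiquitin ligase that clears misfolded protein, was at 237, 240.1, 233, 245 and 252 CPM in control and at 229, 233, 226, 221 and 238 CPM in circTau6 libraries. The groups overlapped by little, with 3 circTau6 libraries below every control. Its log2 fold change was -0.07 ± 0.04 (SE), with an unadjusted p of 0.0800 and an adjusted p of 0.981 in edgeR, and it was -0.05 without control replicates 4 and 5. Herpud1, a membrane protein of the same pathway, was at 43.0, 44.4, 48.4, 51.6 and 56.1 CPM in control and at 42.2, 41.3, 48.5, 49.4 and 39.6 CPM in circTau6 libraries. Control replicates 5 and 4 were again highest. Dnajb9, a J-domain co-chaperone of BiP, was at 51.8, 48.7, 51.2, 54.3 and 57.9 CPM in control and at 53.6, 49.9, 49.1, 49.0 and 46.7 CPM in circTau6 libraries. The range of circTau6 libraries overlapped that of the controls, with 1 library below it. The log2 fold changes of Herpud1 and Dnajb9 were -0.14 ± 0.08 and -0.09 ± 0.06 (SE), with edgeR adjusted p of 0.981, and -0.04 and -0.03 without control replicates 4 and 5.

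Wider lists of the same machinery gave no calls either. Of 24 tested folding factors of the endoplasmic reticulum outside the 32 genes, 0 were called, 9 estimates were positive and the median was -0.01. Sdf2, a relative of Sdf2l1, and P4hb, a disulfide isomerase, had the lowest p, with log2 fold changes of 0.13 ± 0.06 and 0.09 ± 0.06 (SE). Of 23 tested degradation factors 0 were called, 12 were positive and 11 negative. Syvn1, the ubiquitin ligase partner of Sel1l, and Fam8a1 had log2 fold changes of -0.13 ± 0.05 and -0.16 ± 0.07 (SE). All 4 had an edgeR adjusted p of 0.981.

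In the heat shock group, Hsp90aa1, the inducible cytosolic HSP90, lies on chromosome 12 from 110690605 to 110702728 (GRCm38). It was at 1118, 1145, 1130.0, 1289 and 1335 CPM in control and at 1066, 1021, 1081, 1133 and 1177 CPM in circTau6 libraries. The 3 lowest values were circTau6 libraries, and the other 2 of that group lay inside the control range. The group means were 1204 ± 101 and 1096 ± 60.4 CPM (SD, n = 5), and the log2 fold change was -0.14 ± 0.06 (SE) with an unadjusted p of 0.0334 and an adjusted p of 0.981 in edgeR. The unadjusted p was 0.105 without control replicate 4, 0.111 without control replicate 5, 0.0673 without circTau6 replicate 1 and 0.0868 without circTau6 replicate 2. Without control replicates 4 and 5 together it was 0.403, at a log2 fold change of -0.05.

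Hsph1, a nucleotide exchange factor of HSP70, was at 258, 279.7, 268, 334 and 337 CPM in control and at 257, 243, 262, 247 and 303 CPM in circTau6 libraries. Control replicates 4 and 5 lay above all others, and 3 circTau6 libraries lay below every control. The log2 fold change was -0.17 ± 0.09 (SE), with an edgeR adjusted p of 0.981, and -0.04 without both those controls. Hspa8, the constitutive HSP70, was at 1493, 1515, 1544, 1687 and 1851 CPM in control and at 1524, 1459, 1666, 1540.3 and 1594 CPM in circTau6 libraries. The order at the top was again control replicate 5 and then 4, with circTau6 replicate 3 close behind. Its log2 fold change was -0.06 ± 0.06 (SE), and 0.03 without both controls. Hsp90ab1, the constitutive HSP90, ranged from 1343 to 1530 CPM, and Stip1, which links HSP70 to HSP90, from 133 to 178 CPM.

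The inducible HSP70 genes Hspa1a and Hspa1b are neighbours on chromosome 17, at 34969190 to 34972156 and at 34956436 to 34959238 (GRCm38). Of the 150-base windows of the longest Hspa1a transcript, the read length, 38.1% also occur in Hspa1b, so how reads were divided between the 2 genes is uncertain. Hspa1a was at 13.5, 12.7, 12.1, 15.7 and 22.1 CPM in control and at 11.9, 13.7, 13.5, 13.0 and 16.3 CPM in circTau6 libraries. Hspa1b was at 12.4, 11.9, 11.7, 20.8 and 27.6 CPM in control and at 14.1, 9.89, 14.3, 14.1 and 14.7 CPM in circTau6 libraries. Control replicate 5 was the highest library for both, and control replicate 4 the second for Hspa1b alone. The log2 fold change of Hspa1b was -0.33 ± 0.26 (SE), the most negative of the 31, with an edgeR adjusted p of 0.981. It was -0.08 without control replicate 5, -0.24 without control replicate 4 and 0.16 without both. Dnajb1, the co-chaperone induced with them, was highest in control replicate 5 at 46.8 CPM, where the others had 35.9 to 39.7 CPM. Bag3, a co-chaperone of selective autophagy, ranged from 7.92 to 11.2 CPM and was the 1 heat shock gene with a positive estimate, 0.01 ± 0.11 (SE).

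The small heat shock proteins followed another order. Cryab, which encodes αB-crystallin and is abundant in glia, was at 58.7, 53.1, 57.6, 65.4 and 71.0 CPM in control and at 64.0, 53.3, 67.7, 59.3 and 56.8 CPM in circTau6 libraries. Hspb1 (HSP25 in mouse) was at 5.56, 3.09, 5.34, 5.69 and 11.3 CPM in control and at 6.86, 1.93, 8.78, 4.47 and 5.17 CPM in circTau6 libraries. Control replicate 5 and circTau6 replicate 3 had the highest values of both genes, and control replicate 2 and circTau6 replicate 2 the lowest. The log2 fold changes were -0.02 ± 0.08 for Cryab and -0.18 ± 0.42 for Hspb1 (SE), with edgeR adjusted p of 0.994 and 0.991.

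Hspd1 and Hspe1 encode the mitochondrial chaperonin HSP60 and its lid HSP10, and lie head to head on chromosome 1, Hspd1 on the reverse strand from 55077835 to 55088243 and Hspe1 on the forward strand from 55088132 to 55091307 (GRCm38). Their annotated spans overlap, and the labels do not say whether the counting used strand. Their shared start region held the heat shock element, searched as GAA, TTC and GAA with gaps of 2 bases, on both strands. It was held by 0.514% of 27025 genes and by no other gene of the 27. Only exact matches were counted, so promoters without one may still hold variants of the element. The stretch shown overlaps an exon of 1 Hspd1 transcript. The element is given on the strand of Hspe1 with the units of 2 overlapping matches in capitals:
Hspe1 chr1:55088053-55088082: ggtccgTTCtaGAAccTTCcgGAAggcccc
Hspd1 ranged from 157 to 191 CPM and Hspe1 from 21.3 to 26.9 CPM, both highest in control replicate 5. Their log2 fold changes were -0.06 ± 0.05 and 0.00 ± 0.08 (SE). The 8 subunits of the cytosolic chaperonin gave 0 calls and 6 negative estimates, with Cct6a at -0.08 ± 0.04 and Cct3 at -0.06 ± 0.05 (SE). The 8 genes of mitochondrial proteolysis gave 0 calls and 6 negative estimates, with Oma1 at -0.18 ± 0.15 and Yme1l1 at -0.05 ± 0.05 (SE). Of 25 other heat shock protein genes 0 were called and 16 were negative, with Hspa4l, a relative of Hsph1, at -0.16 ± 0.07 and Hspa12b at 0.31 ± 0.17 (SE). Of 23 cofactors 0 were called and 15 were negative, with Bag6 at 0.10 ± 0.04 and Chordc1 at -0.22 ± 0.12 (SE).

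**Figure D2:**
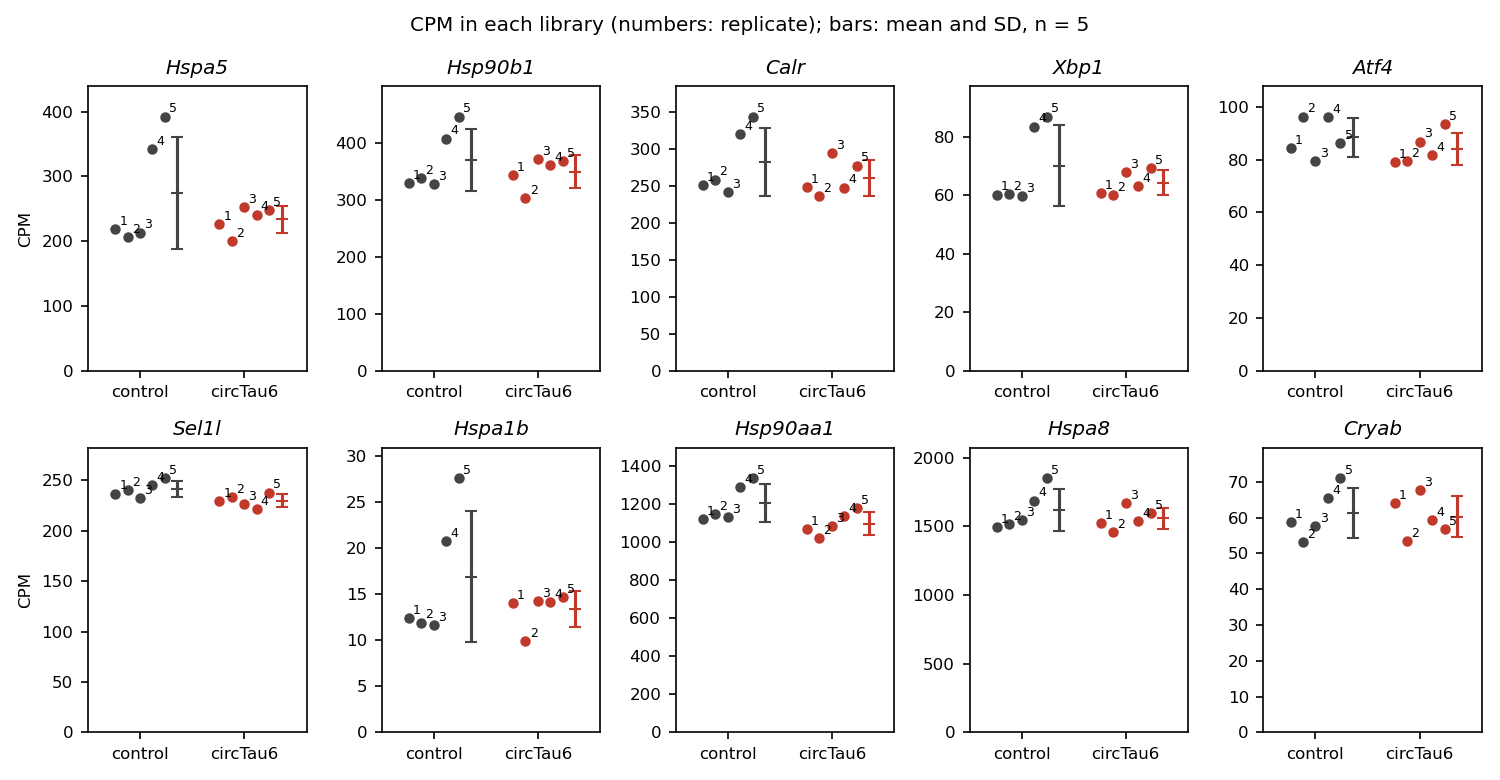
CPM (y axis, from 0) of 10 genes in each library, with the replicate number beside each point and bars for mean and SD (n = 5) of control (grey) and circTau6 (red). Control replicates 4 and 5 are the top points of Hspa5, Hsp90b1, Calr, Xbp1, Hspa1b, Hsp90aa1 and Hspa8, while Atf4 has no such split.

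The larger differences were between mice of the control group, and this description was chosen after the values were seen. Control replicate 5 was the highest of the 10 libraries for 10 of 18 unfolded protein response genes and for 12 of 13 heat shock genes, beside 10.1% of all tested genes. Control replicates 4 and 5 were the 2 highest libraries for 15 of the 31 genes (48.4%), beside 3.20% of all tested genes. These 15 were Hspa5, Hsp90b1, Calr, Pdia4, Dnajb9, Xbp1, Herpud1 and Sel1l of the endoplasmic reticulum, and Hspa1b, Hsp90aa1, Hsp90ab1, Hsph1, Hspa8, Hspd1 and Stip1. As a median over the 31 genes, log2 CPM lay 0.23 above the mean of the 10 libraries in control replicate 5 and 0.12 above it in control replicate 4. In the other 8 libraries that median lay between -0.12 and 0.04.

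Genes outside the 32 were high in the same libraries to different degrees. Of the 24 other folding factors of the endoplasmic reticulum, 9 (37.5%) had control replicates 4 and 5 as their 2 highest libraries. These 9, named after their values were seen, were Pdia3, Pdia6, Hyou1, Canx, Dnajc3, Dnajb11, Creld2, Manf and Erp44. Manf, a secreted stress-induced factor, had 38.4 and 39.3 CPM there and 24.5 to 34.3 CPM in the other libraries. Hyou1, a large HSP70 relative of the same compartment, had 112 and 130 CPM there and 89.9 to 104 CPM in the other libraries. The same held for 3 of 25 other heat shock protein genes, 3 of 23 cofactors, 2 of 23 degradation factors and 0 of 36 genes of the Atf4 list. Control replicate 5 alone was the highest library for 10 of the 24 folding factors and 10 of 23 cofactors. It was so for 3 of 25 other heat shock protein genes, 4 of 23 degradation factors and 2 of 36 genes of the Atf4 list, beside 10.1% of all tested genes.

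Other measures of these 2 libraries were as follows, and their part in the pattern was not tested. Their totals of 15154241 and 15051882 counts were the lowest after that of circTau6 replicate 5, where the median over the 31 genes lay 0.02 above the mean of the 10 libraries. Of the tested genes that mark choroid plexus, microglia, oligodendrocytes, astrocytes, neurons, endothelium, meningeal fibroblasts and B or plasma cells, 0 had control replicates 4 and 5 as their 2 highest libraries. The summed level of the choroid plexus list was 4110 and 3452 CPM in control replicates 4 and 5, inside the range of the others. The 11 microglia markers summed to 427 and 428 CPM, the lowest of the 10 libraries, where the other controls had 448 to 470 CPM and the circTau6 libraries 486 to 534 CPM. The B and plasma cell list, cells rich in these chaperones, summed to 22.3 and 70.0 CPM there and to 18.4 to 171 CPM in the others. The 15 immediate early genes, which respond to neuronal activity and handling, summed to 380 and 502 CPM there and to 376 to 711 CPM in the others. RNA integrity was given for the samples only as above 8. In such bulk tissue, fewer cells of a type and less RNA per cell cannot be told apart.

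**Figure D3:**
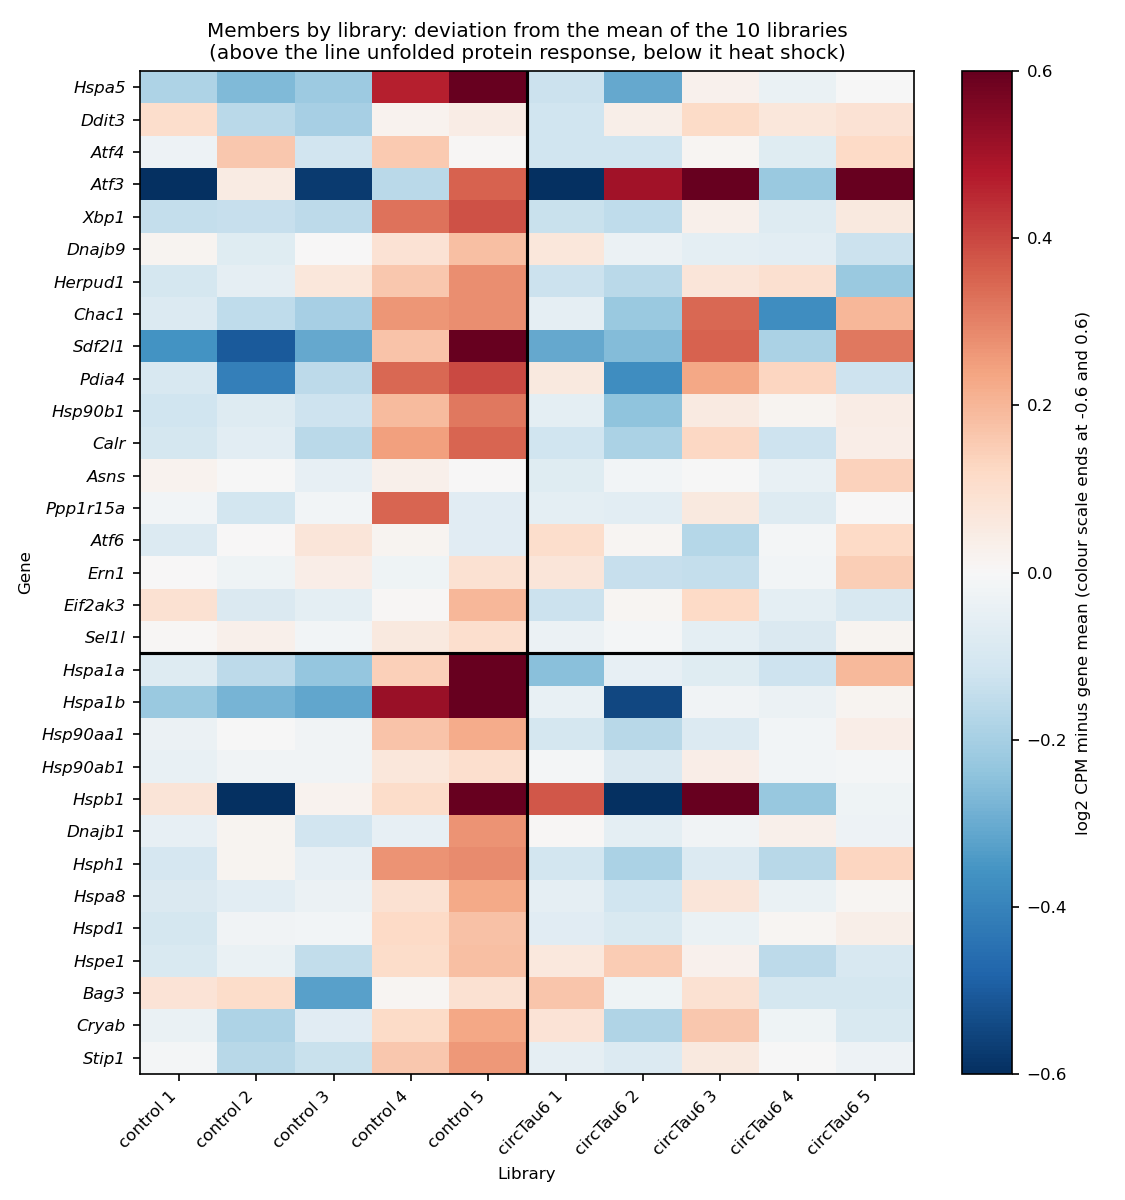
Log2 CPM minus the gene's mean over the 10 libraries (colour) for the 31 tested genes (rows) in each library (columns), unfolded protein response above the horizontal line and heat shock below it, control left of the vertical line and circTau6 right of it. Colours end at -0.6 and 0.6, and the columns of control replicates 4 and 5 are red in most rows.

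Measured against genes of like abundance, the spread within groups was large for several chaperones and middling or small for the sensors. The within-group SD of log2 CPM was set against the 501 tested genes nearest in mean level. That of Hspa5, 0.32, lay at the 99.8th percentile. Pdia4, Calr, Hspa1b, Hsp90b1, Xbp1 and Hspb1 followed between the 95.4th and the 97.4th percentile. At the other end stood Ddit3 at the 7.58th, Sel1l at the 8.98th, Ern1 at the 12.6th and Asns at the 16.4th percentile, while the sensors Eif2ak3 and Atf6 lay at the 39.1st and the 62.7th. Of these genes, Hspa5, Pdia4, Calr, Hspa1b, Hsp90b1 and Xbp1, and at the low end Sel1l, had their 2 top values in control replicates 4 and 5.

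**Figure D4:**
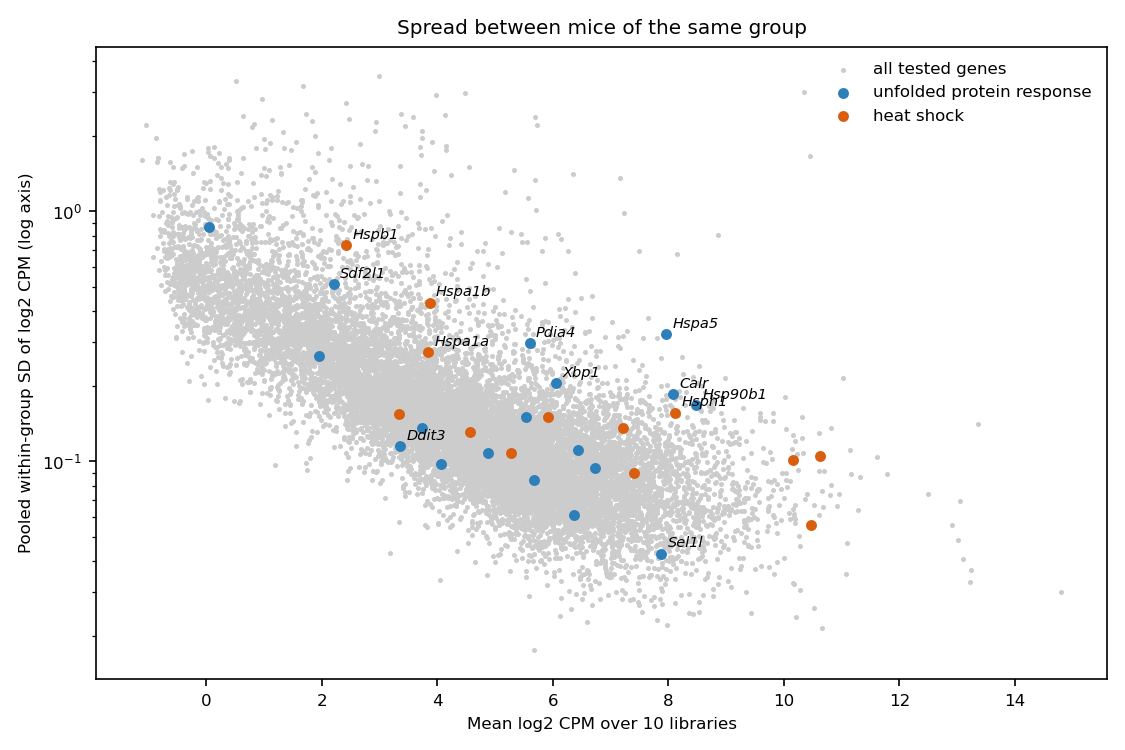
Pooled within-group SD of log2 CPM (y axis, log scale) against mean log2 CPM over the 10 libraries (x axis) for all 14396 tested genes (grey), unfolded protein response genes (blue) and heat shock genes (orange). Hspa5 lies at the upper edge of genes of its level and Sel1l near the lower edge.

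To see which genes moved together across mice, 29 pairs of genes were compared over the libraries as log2 CPM. For Hspa5 control replicates 4 and 5 form a cluster of their own, so no r over all 10 libraries is given for its pairs. Over the other 8 libraries, Hspa5 and Hsp90b1 had a Pearson r of 0.93 and a Spearman rho of 0.93, with an exact permutation p of 0.000942 and an adjusted p of 0.0273 over the 29 pairs. Hspa5 and Hspa8, chaperones of different compartments, had an r of 0.84 and a rho of 0.81 (exact permutation p 0.00375, adjusted 0.0311). Hspa5 and Sdf2l1 had an r of 0.83 and a rho of 0.74 (exact permutation p 0.00625, adjusted 0.0363). The pairs of Hspa5 with Pdia4 and Calr had an r of 0.83 and 0.75, with adjusted exact permutation p of 0.0646 and 0.121. With Dnajb9 and Herpud1 the r was -0.37 and 0.21, with adjusted exact permutation p of 0.533 and 0.693. The r of Dnajb9 and Herpud1 was thus lower than that of the chaperones, a difference that was not tested. These 8 libraries pool both groups. For Hspa5 and for Hsp90b1, control replicates 1, 2 and 3 lay below every circTau6 library except replicate 2. An r over these 8 therefore does not separate a difference between the groups from variation between mice.

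Outside the Hspa5 pairs, Hspb1 and Cryab had an r of 0.90 and a rho of 0.90 over 10 libraries (permutation p 0.00019 and 0.00087, adjusted 0.00128 and 0.00667). Without circTau6 replicate 2 and control replicate 5 the r was 0.87. Atf4 and its target Asns had an r of 0.68 and a rho of 0.72 (permutation p 0.0192 and 0.0237, adjusted 0.0397 and 0.0860). Without control replicates 2 and 4 the r of Atf4 and Asns was 0.91. The other pairs of this branch were not past the threshold. With Chac1 and Trib3, Atf4 had an r of 0.52 and -0.34 (adjusted permutation p 0.183 and 0.414). Ddit3 and Trib3, a gene with few counts, had an r of -0.31 (adjusted permutation p 0.452). Hsp90aa1 and Hsph1 had an r of 0.93 and a rho of 0.87 (permutation p 0.00022 and 0.00221, adjusted 0.00128 and 0.0128). Without control replicates 4 and 5 their r was 0.74, with an adjusted exact permutation p of 0.123. Hsp90aa1 and Hspa8 had an r of 0.81 and a rho of 0.68 (permutation p 0.00482 and 0.0348, adjusted 0.0127 and 0.0918). Without control replicates 4 and 5 their r was 0.32, with an adjusted exact permutation p of 0.577. Leaving out the farthest libraries also narrows the range of values, and the difference between these r was not tested. Hspd1 and Hspe1, which share a start region, had an r of 0.34 and a rho of 0.05 (permutation p 0.346 and 0.892, adjusted 0.414 and 0.924). Without control replicates 4 and 5 the r of Hspd1 and Hspe1 was -0.59, with an adjusted exact permutation p of 0.322. Atf3 and the immediate early gene Fos had an r of 0.71 and a rho of 0.70 (permutation p 0.0208 and 0.0306, adjusted 0.0402 and 0.0889), but an r of 0.36 without circTau6 replicates 1 and 5. Over all 10 libraries 15 of the 29 pairs had an adjusted p under 0.05, all with a positive r. Of these 15, 5 also had one over the 8 libraries that remained when the 2 farthest from the median of the first gene were left out. The 15 include pairs of Hspa5, whose r over 10 libraries is not given above. In 17 of the 29 pairs the 2 farthest libraries were control replicates 4 and 5. Within the control or the circTau6 group alone 5 libraries are too few for such a comparison.

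**Figure D5:**
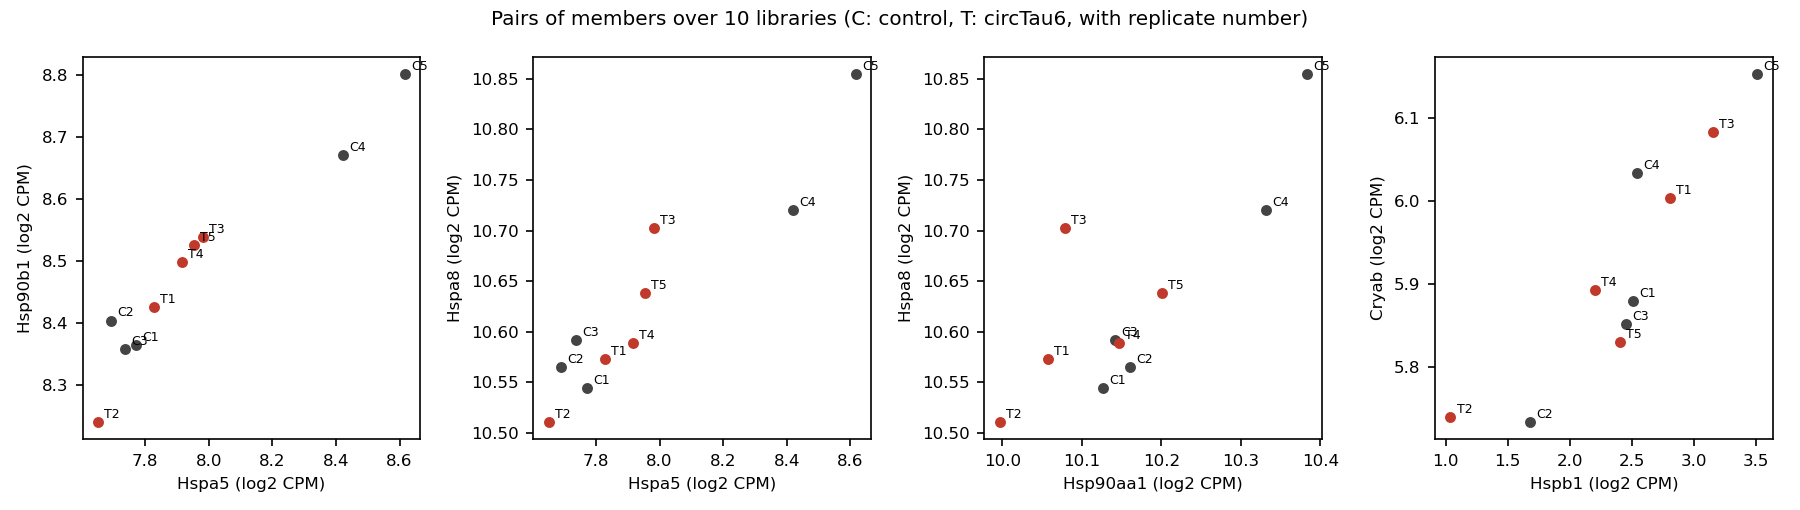
Log2 CPM of 4 pairs of genes against each other, 1 point per library (C for control, T for circTau6, with the replicate number). In the first 3 panels C4 and C5 lie at the upper right, and the remaining libraries keep the relation for Hspa5 with Hsp90b1 and with Hspa8 but hardly for Hsp90aa1 with Hspa8.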

How the data were processed

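The authors deposited 1 table with a count and a TPM for each of 21956 genes and 10 libraries, per the file headers, together with their own log2 fold change, p-value and FDR. The deposited log2 fold change equals the log2 ratio of mean TPM between groups. StringTie 1.3.1 and RSEM appear in the submitters' processing notes, while the aligner, build and annotation were not stated. Libraries were strand-specific, depleted of ribosomal RNA and sequenced as 150 bp pairs, per the labels' protocols. In the deposited counts, 108 entries of 0 stand beside a TPM above 0, so counts may be rounded estimates; they were used as deposited.

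Groups follow the treatment label. edgeR 4.0.16 in R 4.3.3 was used with filterByExpr, TMM scaling, a robust quasi-likelihood F test and Benjamini-Hochberg adjustment over all 14396 tested genes; tests across genes were checked on simulated data. The labels do not say that samples came from separate animals, so p-values measure the spread between these samples. CPM is per library total adjusted by the TMM factor, and log2 CPM uses the same scaling and a prior count of 2. Correlations used 100000 permutations, or exact permutation over 8 libraries. Of the 29 pairs, 1 is not reported here but stays in the adjustment. Alternatives were DESeq2 1.42.0, limma 3.58.1 (voom, and log2(TPM + 1)), other scalings, no filter, a replicate block and leaving out libraries.

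The 32 genes, lists and pairs were chosen with earlier results of these data known. Values in every library are given for 9 set genes, the 3 with the lowest p and the 2 with the largest SD per response, and for Hsp90b1 and Calr, added after their values were seen. At most 2 genes by lowest p of each other list are named, with their log2 fold change; Manf and Hyou1 were added after their values were seen. A second Ddit3 row, with 2 counts in all, was not used. IDs matched GENCODE M21 (GRCm38) for 32 of 32 genes, and 27 had a promoter in the RefSeq table.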

Additional observations from a re-analysis of the deposited data

Results flagged for a closer look

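Of 64 groups of 5 values examined, 3 held a library far from the other 4 of its group; chance picks out about 1 in 20 such groups. Ppp1r15a, the gene of the phosphatase subunit GADD34, was at 16.9 CPM in control replicate 4 against 12.2 to 13.1 CPM in the other controls. Bag3, the autophagy co-chaperone, was at 7.92 CPM in control replicate 3 against 10.04 to 10.74 CPM in the other controls. Hspa1b, an inducible HSP70, was at 9.89 CPM in circTau6 replicate 2, where the other circTau6 libraries had 14.1 to 14.7 CPM. The high values of Hspa5, Xbp1 and Hspa1b in control replicates 4 and 5 did not meet this criterion, since each of these libraries lies beside the other.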

How the results depend on the processing

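Under 9 other settings and with each of the 10 libraries left out, 0 genes of either response were called and 0 genes of the table were called lower. The number of genes of the table called higher was 0 as reported, 11 in DESeq2, 2 with library totals only, 2 with no filter, 4 with the replicate block and 3 without both choroid-poor libraries, 0 without control replicates 4 and 5 together, and 0 to 4 when 1 library was left out (1 without control replicate 1 or 3, 4 without circTau6 replicate 5). The labels do not say that replicate numbers pair the samples. Deviations of same-numbered libraries correlated at -0.076 to 0.14, and 1 of 10 libraries correlated best with its own number. These correlations over all genes gave no sign of pairing but cannot exclude it. Under the replicate block Hspa5 had a log2 fold change of -0.18. The sign of some estimates near 0 changed. For Asns it was -0.0025 in DESeq2, -0.0014 with no filter, -0.016 in limma voom, -0.00038 with the replicate block and -0.038 without both choroid-poor libraries. For Hspe1 it was 0.0058 with upper-quartile scaling, 0.018 with library totals only, 0.012 on log2(TPM + 1) and 0.0047 without both choroid-poor libraries. Cryab was at 0.0027 with library totals only, Ern1 at 0.0059 on log2(TPM + 1) and Atf6 at -0.0019 without both choroid-poor libraries. Those 2 libraries left out, r was -0.081 for Xbp1 with Ttr, and that of Atf3 with Fos, at 0.61, was no longer past the threshold. Without control replicates 4 and 5 together, chosen after seeing the data, 18 log2 fold changes turned positive. They were 0.13 for Hspa5, 0.092 for Xbp1, 0.15 for Chac1, 0.41 for Sdf2l1, 0.21 for Pdia4, 0.071 for Hsp90b1, 0.057 for Calr and 0.019 for Ppp1r15a. In the heat shock group they were 0.099 for Hspa1a, 0.16 for Hspa1b, 0.0099 for Hsp90ab1, 0.22 for Hspb1, 0.031 for Dnajb1, 0.034 for Hspa8, 0.015 for Hspd1, 0.092 for Hspe1, 0.090 for Cryab and 0.078 for Stip1.

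With 1 library left out the log2 fold change ranged from -0.035 to 0.019 for Asns, -0.0037 to 0.066 for Atf6, -0.063 to 0.036 for Bag3, -0.14 to 0.049 for Chac1, -0.069 to 0.037 for Cryab, -0.063 to 0.034 for Dnajb1, -0.22 to 0.021 for Hspa1a, -0.42 to 0.15 for Hspb1, -0.046 to 0.042 for Hspe1, -0.15 to 0.053 for Pdia4, -0.10 to 0.029 for Ppp1r15a, -0.26 to 0.25 for Sdf2l1 and -0.099 to 0.0096 for Stip1. The medians ranged from -0.096 to -0.015 for the unfolded protein response and from -0.083 to 0.0096 for heat shock. The cause of these changes was not tested. Depth limits Atf3 and Trib3, whose counts are few.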
